A study of Mus musculus with 13 samples.

Results

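The mouse gene names of the form Gm followed by a number are provisional symbols, given to loci that have no functional name. The 123 Gm features described here were listed in the deposited FPKM table, were absent from both deposited count tables, and were chosen by their abundance, with an FPKM averaging 50 or more across the 13 oocytes. The FPKM table held 49686 features, of which 26293 carried such a symbol and 26227 of these lay outside the count tables. Only 3 Gm features of the count tables reached the same mean. The abundance of the 123 members is therefore a description and not a finding.

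Each library was made from a single oocyte of a C57BL/6 female aged 3 to 4 weeks, collected 48 h after PMSG, a gonadotropin that drives follicle growth. All oocytes were injected with mRNA for FBL-GFP, a fluorescent form of the nucleolar protein fibrillarin, and were held for 6 h in Cilostamide, an inhibitor that keeps the oocyte at the germinal vesicle (GV) stage. The FBL-GFP pattern sorted the live GV oocytes into NSN (non-surrounded nucleolus) and SN (surrounded nucleolus) oocytes. The libraries were 3 SN GV, 3 NSN GV, 4 SN-MII and 3 NSN-MII oocytes, and the MII (metaphase II) oocytes had matured in vitro from GV oocytes of the named type, so only oocytes that completed maturation are represented at MII. Nothing in the labels ties oocytes to animals, so each oocyte was treated as an independent sample. The p-values below set differences between groups against the spread between these oocytes. Oocytes that shared an animal would not be independent, and this could not be taken into account.

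The fully grown oocyte stops transcription before it resumes meiosis. Maturation to MII therefore runs on stored maternal RNA, part of which is degraded and part of which is translated from the store. Oocytes are also known for RNA from repeated sequences and for small gene families with many near-identical copies. A processed pseudogene is a copy of a spliced mRNA that was written back into the genome, and a read from such a copy can often be placed equally well in the source gene. RSEM, the program that made these values, shares such a read out among all the places it fits, so values of near-identical features are not independent measurements.

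All 123 members matched a gene of the GENCODE M21 annotation (build GRCm38, the same assembly as mm10). They comprised 39 lincRNA genes, 21 TEC genes (a label for loci whose transcript still awaits experimental evidence), 19 processed, 7 transcribed processed, 8 unprocessed and 2 transcribed unprocessed pseudogenes, 15 protein-coding genes, 6 antisense genes, 5 processed transcripts and 1 miRNA gene. The longest transcript of each had a median length of 1007 bases, with 10 members under 300 bases. A similar annotated gene was found for 84 members, and for 72 of them a coding gene matched at least 80% of bases over at least 50% of the transcript. In 31 members another gene lay on the opposite strand, in 20 on the same strand, and 80 overlapped no other gene.

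By sequence the members fell into a family of 22, a family of 7, a family of 3 on chromosome X, a family of 3 on chromosome 5, 5 relatives of the oocyte genes Oog1 and Oog2, 5 copies of mitochondrial genes, 8 copies of ribosomal protein genes, 23 copies of other coding genes, and 47 with no coding copy elsewhere in the same orientation, of which 5 matched a coding gene elsewhere in reverse orientation. The family of 22 was the largest and the most abundant. Its members lay on 11 chromosomes, 17 were TEC genes and 4 were lincRNA genes, and all 231 pairs aligned with an identity of 90.7% to 100% (median 95.34%). In 96 of these pairs the annotated transcripts ran in opposite orientation along the shared sequence. The sequences below are an 80-base stretch that all 22 members hold, bases 293 to 372 of Gm37110, shown to make the likeness of the family visible; they are read in the orientation of Gm37110, and capitals mark bases that differ from it. Gm42887 (chr5:69503842-69504960, minus strand), Gm36958 (chr9:102764635-102766509, minus strand) and Gm37724 (chr1:33065130-33066350, plus strand) are among the 4 most abundant members, and Gm44792 (chr7:65479594-65481221, minus strand) is the near-copy of Gm37110 (chr1:32485315-32486942, plus strand) on the other strand.
Gm37110: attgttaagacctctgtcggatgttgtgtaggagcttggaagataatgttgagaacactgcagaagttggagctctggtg
Gm44792: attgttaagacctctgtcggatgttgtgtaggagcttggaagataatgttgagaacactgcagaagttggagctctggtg
Gm42887: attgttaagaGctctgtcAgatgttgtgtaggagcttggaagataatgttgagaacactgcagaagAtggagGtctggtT
Gm36958: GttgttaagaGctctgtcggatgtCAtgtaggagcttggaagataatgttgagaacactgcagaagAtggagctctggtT
Gm37724: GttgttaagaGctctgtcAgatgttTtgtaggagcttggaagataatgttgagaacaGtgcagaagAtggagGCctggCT

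The family of 7 was a separate group, with pairs 88.02% to 97.71% identical where they aligned. The 80 bases below come from Gm15758 (chr8:54708987-54710381, plus strand, a processed transcript), Gm11261 (chr4:78659858-78661588, minus strand) and Gm11851 (chr4:17656675-17657963, minus strand), with capitals where a base differs from Gm15758. They are shown because the same libraries were highest and lowest for all 7 members.
Gm15758: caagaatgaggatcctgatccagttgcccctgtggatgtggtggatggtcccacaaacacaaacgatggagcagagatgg
Gm11261: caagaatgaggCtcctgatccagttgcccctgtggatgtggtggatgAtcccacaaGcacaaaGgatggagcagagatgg
Gm11851: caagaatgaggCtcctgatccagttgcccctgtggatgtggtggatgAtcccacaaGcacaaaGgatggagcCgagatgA

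Some copies of coding genes could be told from their source by very few bases. Gm4332 (chr3:119709516-119709861, plus strand) matched Rps20 over 346 bases with 1 mismatch, and Gm29216 (chr1:24615706-24616197, minus strand) matched mt-Co1 over 483 bases with 1 mismatch. The stretches below surround that base, which is in capitals.
Gm4332: atcagtattgagccAggagttgaggttga
Rps20: atcagtattgagccGggagttgaggttga
Gm29216: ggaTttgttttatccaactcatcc
mt-Co1: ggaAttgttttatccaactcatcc

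The count tables held 7140416 to 8846287 expected counts per library, and no 2 libraries had identical values. Summed FPKM was 654206 to 767205 in GV oocytes and 560705 to 577278 in MII oocytes, so values under other scales are given beside the stage comparison. The third NSN-MII oocyte had the fewest reads by the estimate below and the fourth SN-MII oocyte the most, and results without both are given where they differ. All 12 oocyte markers examined, among them Zp3, Gdf9 and Bmp15, were at 1 FPKM or more in every library. Of 14 cumulus and granulosa markers, 11 had a mean under 1 FPKM, and Foxl2 and Ptx3 among them were listed at 0 everywhere. Those above were Cyp19a1 (16.8 to 53.05 FPKM over the libraries), Nr5a2 (2.58 to 11.2) and Kitl (0.59 to 7.58). The summed FPKM of all 14 was 27.4 to 37.8 in GV oocytes and 39.8 to 65.4 in MII oocytes. Most of this sum for cumulus and granulosa cells came from Cyp19a1. The part of these cells in the results was not tested. In libraries of whole oocytes, a smaller amount of an RNA and a larger amount of all other RNA cannot be told apart. The libraries read polyadenylated RNA, so a change in the poly(A) tail and a change in amount cannot be told apart either.

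The members held a large part of the GV oocyte's summed FPKM and a much smaller part at MII. Their share was 13.98%, 12.50% and 13.20% in the 3 SN GV oocytes and 12.41%, 13.59% and 12.78% in the 3 NSN GV oocytes. It was 3.49%, 3.78%, 3.58% and 3.16% in the SN-MII oocytes and 4.81%, 3.54% and 3.61% in the NSN-MII oocytes. The ranges of the stages did not overlap, while SN and NSN overlapped at both stages. The mean was 13.1% ± 0.625 (SD, n = 6) at GV and 3.71% ± 0.519 (SD, n = 7) at MII. Most of the difference between stages came from the family of 22, which alone held 8.97% to 10.6% at GV and 0.381% to 1.52% at MII. The 101 other members together held 3.25% to 3.87% at GV and 2.55% to 3.28% at MII.

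**Figure D1:**
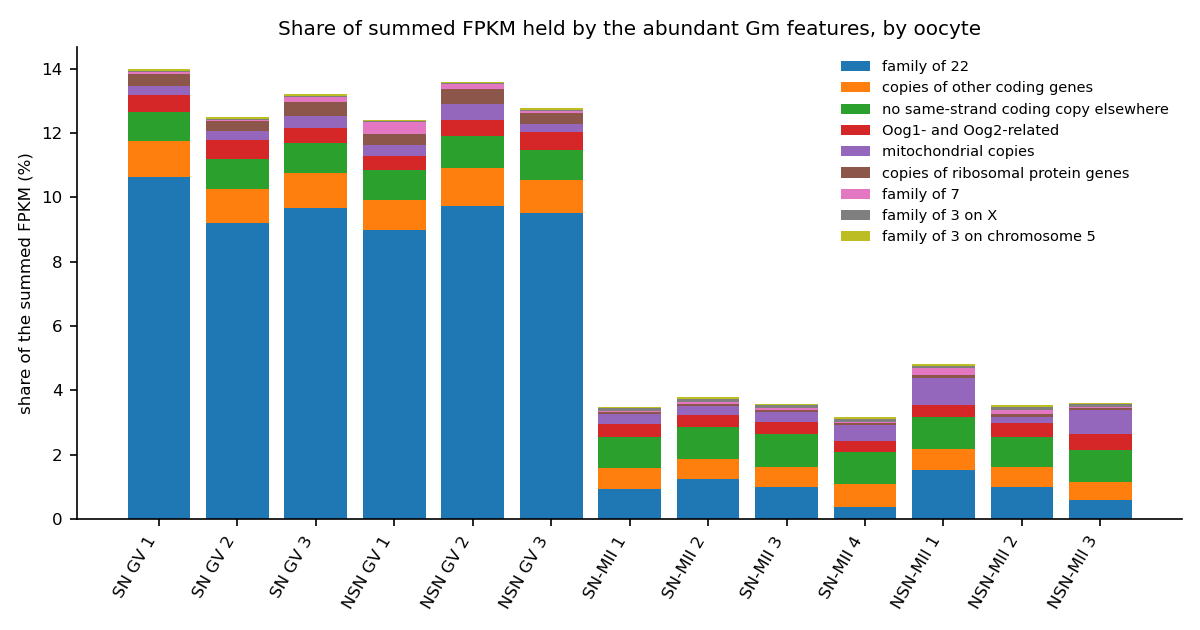
Share of the summed FPKM (%) held by the 123 Gm features in each of the 13 oocytes, stacked by sequence group. The bars of the 6 GV oocytes reach 12.4% to 13.98% and those of the 7 MII oocytes 3.16% to 4.81%, and the blue segment, the family of 22, shrinks from at least 8.97% to at most 1.52%.

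The FPKM table gives no reads, but the count tables allow an estimate. In genes with 1 annotated transcript, expected count divided by FPKM rose in a straight line with transcript length, at 8.03 to 9.53 counts per FPKM and kilobase. On that scale the 21 members of the family of 22 with 1 transcript stood for 658424 to 844962 reads in a GV oocyte, which is 7.32% to 9.23% of the library. In an MII oocyte they stood for 25497 to 94764 reads, or 0.268% to 1.04%. Reads of near-identical members were divided by estimate, so the sum is firmer than the value of any member.

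Between the stages, 94 of the 123 members were called (limma on log2(FPKM + 1), Benjamini-Hochberg adjusted p under 0.05), 24 higher and 70 lower at MII. The background was high: 70.4% of all 11525 features tested were called, 28.4% higher and 41.9% lower, and among the 2302 features with the same mean FPKM of at least 50, 85.4% were called, 43.4% higher and 42.1% lower. The members' 76.4% lay between both backgrounds. Their 19.5% higher was below both, and their 56.9% lower was above both. All members of the family of 22, which share sequence and are not independent, were among the 70 lower. The median log2 difference of the 123 members was -1.32, against -0.24 over all features tested and 0.06 over the features of like abundance. GV and MII libraries did not overlap for 77 members, or 62.6%, where all features gave 48.1% and the features of like abundance 72.2%. The mean over all libraries lets a feature pass through the stage where it is high: 79 members had a mean of at least 50 at both stages, 33 at GV only and 11 at MII only, so the counts describe the members and support nothing about them.

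The split moved with the scale. With every library scaled to the same sum the median over all features moved from -0.24 to -0.02, with median-of-ratios factors to -0.11, and with quantile normalization to 0.32. The members then gave 29 higher and 63 lower, 26 higher and 66 lower, and 32 higher and 62 lower. Of the called features of the whole table, 40.4% were higher as deposited, 48.4% after the first scaling, 44.8% after the second and 58.9% after the third. Among SN oocytes alone 89 members were called (24 higher, 65 lower), where 58.3% of all features were (22.1% higher, 36.2% lower). Among NSN oocytes alone 86 were called (23 higher, 63 lower), where 60% of all features were (23.4% higher, 36.7% lower).

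**Figure D2:**
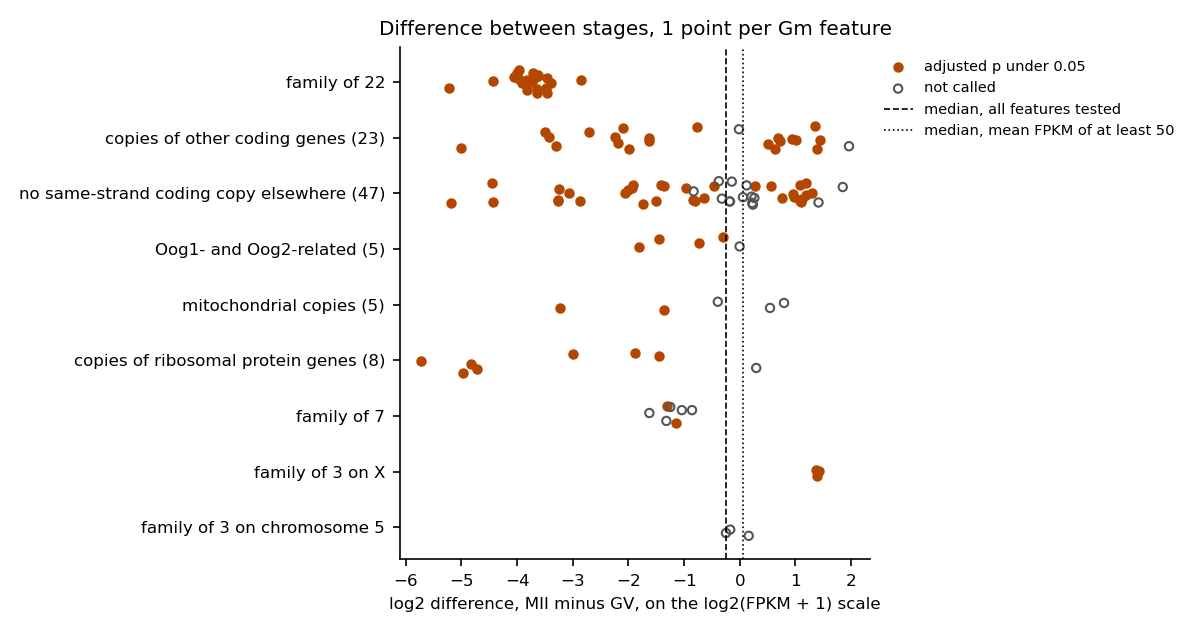
Difference between MII and GV on the log2(FPKM + 1) scale for each of the 123 members, by sequence group (number of members in parentheses), with filled points for an adjusted p under 0.05. The family of 22 lies between -5.22 and -2.85, and the family of 3 on X near 1.4, while the groups with coding copies spread over both sides of the medians of all features (-0.24) and of features of like abundance (0.06).

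The family of 22 fell as a whole. All 22 members were lower at MII, with GV and MII libraries apart for each, and their log2 differences ran from -5.22 to -2.85 (median -3.72). Over all features tested, 41.9% were lower and 48.1% had the stages apart. Gm42887, the most abundant, was at 9222, 7438 and 7706 FPKM in SN GV oocytes and at 6969, 8002 and 7546 in NSN GV oocytes. It was at 597, 841, 674 and 274 FPKM in SN-MII oocytes and at 958, 625 and 394 in NSN-MII oocytes. Every GV library was far above every MII library, and the types overlapped at each stage. Its mean FPKM was 7814 ± 769 (SD, n = 6) at GV and 623 ± 237 (SD, n = 7) at MII, 12.5-fold lower, and its log2 difference was -3.73 (SE 0.24, adjusted p = 1.03e-08).

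The next members by abundance followed the same course. Gm37724 went from 6868 to 8672 FPKM over the GV libraries to 279.5 to 1146 over the MII libraries (log2 difference -3.65, SE 0.24), and Gm36958 from 5098 to 6804 to 214 to 737 (-3.71, SE 0.24). Gm36976 (chr3:43547173-43548282), Gm48273 (chr10:50333764-50334749), Gm42553 (chr5:43059255-43060883) and Gm43042 (chr5:59569702-59574242) fell 10.5-, 15.7-, 14.2- and 14.4-fold in mean FPKM. Gm45663 (chr8:104152706-104154337) had the smallest fall of the family, 6.86-fold, with 2921 to 3968 FPKM at GV and 225 to 727 at MII. None of these 7 overlapped another annotated gene.

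Near-identical members show how the values were divided. Gm37110 lies inside Khdrbs2, which encodes an RNA-binding protein, and Gm44183 (chr2:38564727-38566354, minus strand) lies opposite Nek6, which encodes a protein kinase. Their 1628 bases are 100% identical, and their FPKM was the same in all 13 libraries: 4929.8, 4413 and 4595 in SN GV oocytes, 3798, 4746 and 4618 in NSN GV oocytes, 332, 483, 389.5 and 124 in SN-MII oocytes and 540.0, 361 and 203 in NSN-MII oocytes. The pair therefore counts as a single measurement, and nothing in these values says which locus, if any, was transcribed. Gm44792, which lies inside the tight junction gene Tjp1, is 99.94% identical to Gm37110 but annotated on the other strand of the shared sequence. It was at 3830.0, 2717 and 3778 FPKM in SN GV oocytes and 3258, 4465 and 2640.0 in NSN GV oocytes, and at 119.5, 159, 97.4 and 26.7 in SN-MII and 169.8, 98.3 and 53.6 in NSN-MII oocytes. Its fall of 33.3-fold (log2 difference -5.22, SE 0.36, adjusted p = 2.07e-08) was the largest listed in the family. The values of Gm44792 and Gm37110 rest on how their shared reads were divided, so this rank is uncertain.

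Gm20826 is the protein-coding member of the family and is annotated on chromosome Y (chrY:7632774-7638489, minus strand), although every oocyte came from a female. It was listed at 95.9 to 132 FPKM at GV and 3.67 to 13.5 at MII (log2 difference -3.63, SE 0.25). Its 4605-base transcript holds the family sequence over 1630 bases at 95.52% identity to Gm37110, so its listed value cannot be told apart from reads of the other members.

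**Figure D3:**
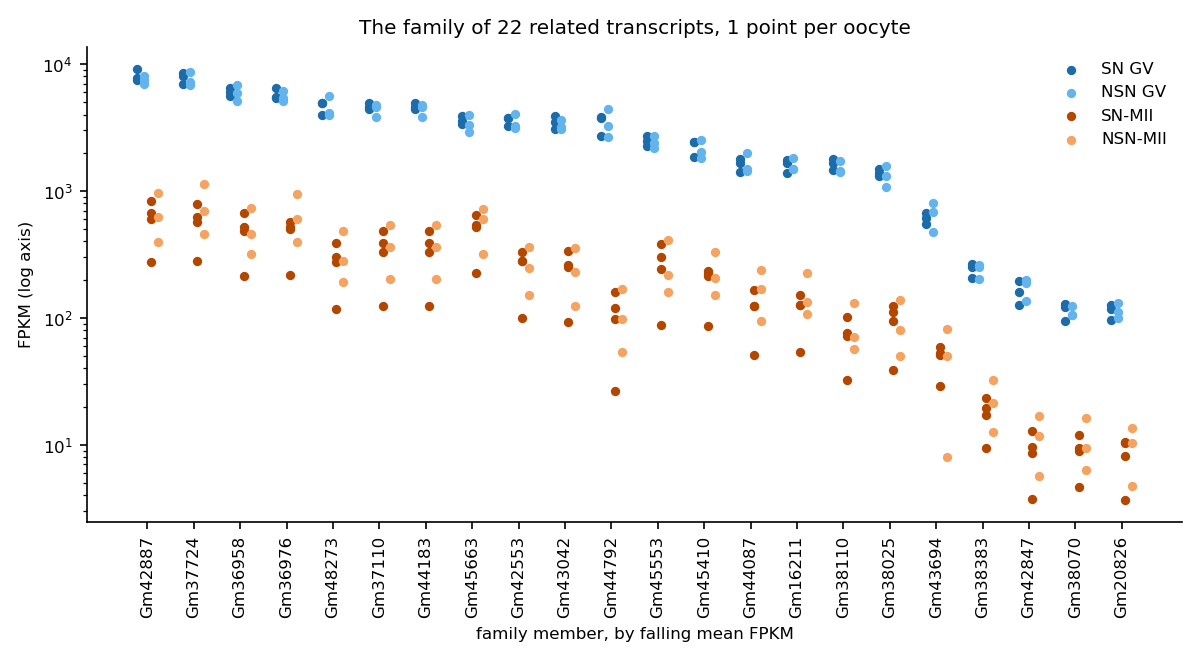
FPKM (log axis) of the 22 family members, ordered by mean, with 1 point per oocyte coloured by group. For every member the 6 GV oocytes lie above the 7 MII oocytes, and the lowest MII point is SN-MII oocyte 4 for 21 of 22 members.

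The MII libraries varied together over the family. The first NSN-MII oocyte was the highest MII library for 22 of 22 members, and the fourth SN-MII oocyte the lowest for 21 of 22. Between these libraries the family's summed share differed from 1.52% to 0.381%. The members share sequence and their reads are divided by estimate, so the 22 are not separate observations of an oocyte. Over the GV libraries, the highest was at most 1.71-fold above the lowest for any member, with a median of 1.33-fold, and over the MII libraries the median was 4.06-fold. All 22 members stayed lower at MII when each library was left out in turn and when both the third NSN-MII and the fourth SN-MII oocyte were left out.

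The sequence of the family is not confined to these Gm loci. In all, 199 features of the FPKM table held at least 300 bases of it at 85% identity or more, among them 177 that were not members, and 86 of the 199 were in the count tables. Of the other holders with a mean FPKM of at least 1, 13 held 1000 or more of these bases and all 13 were lower at MII, with a median log2 difference of -3.25. Of 92 that held at least 300 bases but fewer than 1000, 15 were higher, 61 lower and 16 not called, with a median of -1.05. The background over all features tested was 28.4% higher and 41.9% lower. Olfr624, an olfactory receptor gene that is the closest coding relative of several members, was at 345 to 441 FPKM over the GV libraries and 8.27 to 34.1 over the MII libraries (log2 difference -4.18, SE 0.27). Ccdc82, the closest coding relative of Gm36958, was at 219.7 to 322 and 14.2 to 40.7 FPKM (log2 difference -3.39, SE 0.19). How far reads of the family enter the values of these genes was not tested.

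Of the 8 copies of ribosomal protein genes, 7 were lower at MII, with a median log2 difference of -3.86 over the 8. Over all features tested, 41.9% were lower. Gm4332, the copy of the small-subunit gene Rps20, was at 264, 227 and 318 FPKM in SN GV oocytes and 237, 364 and 205 in NSN GV oocytes. It was at 4.45, 9.34, 5.77 and 0.35 FPKM in SN-MII oocytes and 4.54, 5.01 and 3.39 in NSN-MII oocytes. No MII library came near a GV library, and the log2 difference of -5.72 (SE 0.37, adjusted p = 9.26e-09) was the largest fall of all members. By the read estimate, the MII values of Gm4332 stood for only 0.5 to 12.7 reads per oocyte. The size and rank of its fall are therefore uncertain. Rps20 itself, in the count tables, was at 37.1 to 76.6 FPKM at GV and 0.79 to 2.87 at MII (log2 difference -4.60, SE 0.21).

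Gm7536 (chr3:24333068-24333511, plus strand) is a copy of the large-subunit gene Rpl27a, identical over all 444 bases, and lies opposite Naaladl2. It went from 137 to 277 FPKM over the GV libraries to 2.58 to 14.8 over the MII libraries (log2 difference -4.98, SE 0.33), while Rpl27a went from 14.2 to 35.6 to 1.63 to 3.64 FPKM (-2.65, SE 0.23). The MII values of Gm7536 stood for an estimated 5.1 to 33.4 reads per oocyte, so the size of its fall is uncertain. Gm15500, identical to the large-subunit gene Rpl5 over 1018 bases, fell 26.1-fold in mean FPKM. Gm14303, identical to the small-subunit gene Rps29 over 171 bases, was listed at 623 to 1264 FPKM over the GV libraries and at 0 to 93.3 over the MII libraries, with the 0 in the third NSN-MII oocyte. The line behind the read estimate reached 0 at 193 to 202 bases, above the 171 bases of Gm14303. No reads could therefore be estimated for it, and its listed levels and its 0 are uncertain.

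Over all features tested, 28.4% were higher and 41.9% lower at MII. Among the 23 copies of other coding genes, 9 were higher and 12 lower at MII and 2 were not called. Gm1821 (chr14:46084028-46085000, plus strand), a copy of the ubiquitin gene Ubb over 617 bases with 8 mismatches, was the most abundant of them. It was at 2484, 2239.9 and 2213 FPKM in SN GV oocytes and 1951, 2721 and 2202 in NSN GV oocytes, and at 175, 277, 269 and 243 in SN-MII and 247, 228 and 118 in NSN-MII oocytes. The stages were apart and the types overlapped, and its fall of 10.3-fold (log2 difference -3.43, SE 0.17, adjusted p = 9.68e-10) stood beside 10.6-fold for Ubb (-3.47, SE 0.19). Gm10175, identical over 645 bases to Atp5g2, which encodes a subunit of the mitochondrial ATP synthase, fell 29.0-fold, from 196 to 277 FPKM at GV to 0.07 to 13.4 at MII (log2 difference -5.01, SE 0.49).

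Other copies rose. Gm9762 (chr3:78966356-78966799, minus strand), identical over 444 bases to Ube2d2a, which encodes a ubiquitin-conjugating enzyme, was at 48.6, 72.7 and 63.1 FPKM in SN GV oocytes and 60.6, 34.8 and 45.5 in NSN GV oocytes. It was at 91.6, 150.1, 176 and 183 FPKM in SN-MII oocytes and 143, 135 and 161 in NSN-MII oocytes, all above every GV library, and its log2 difference of 1.45 (SE 0.18, adjusted p = 7.36e-06) was the largest rise among the members whose stages were apart. Ube2d2a rose with 1.30 (SE 0.17). Gm15681 (chr8:99145386-99148089, minus strand), which is 90.7% identical to Ppp4r1, a gene of a protein phosphatase subunit, and lies inside the cadherin gene Cdh8, rose from 95.5 to 115 FPKM at GV to 226 to 313 at MII (1.40, SE 0.10), and Ppp4r1 itself had a difference of 0.25 (SE 0.29) that was not called. Gm8186, identical over 231 bases to the spliceosomal gene Snrpg, rose with 0.94 (SE 0.13), and Gm12481, identical over 297 bases to Serf2, rose with 0.62 (SE 0.14).

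A copy and its best-matching coding gene mostly changed in the same direction. Of the copies of ribosomal or other coding genes, 29 pairs with that gene in the table were compared, and both were called in 25 pairs (6 ribosomal, 19 other), with the same direction in 24. The sources of the reads overlap, 13 of these pairs being 100% identical over the aligned bases, so the values of a pair are not independent. Gm32983 was the exception: it fell from 84.4 to 105 FPKM at GV to 2.35 to 15.0 at MII (log2 difference -3.29, SE 0.31), whereas the galectin-like gene Lgalsl, 87.9% identical to it, rose from 1.93 to 4.04 FPKM to 3.32 to 7.18 (0.68, SE 0.20). Gm5065, a protein-coding relative of the same gene at 88.2% identity, rose from 70.0 to 125 FPKM to 109 to 152 (0.50, SE 0.15). Gm4739 and Hmgb2, a gene of a chromatin protein, differ at only 2 of 633 aligned bases, and their log2 differences were -2.18 (SE 0.24) and -0.64 (SE 0.17). Gm4739 was at 583 to 1064 FPKM over the GV libraries and 113 to 246 over the MII libraries except the fourth SN-MII oocyte, which was at 568.

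**Figure D4:**
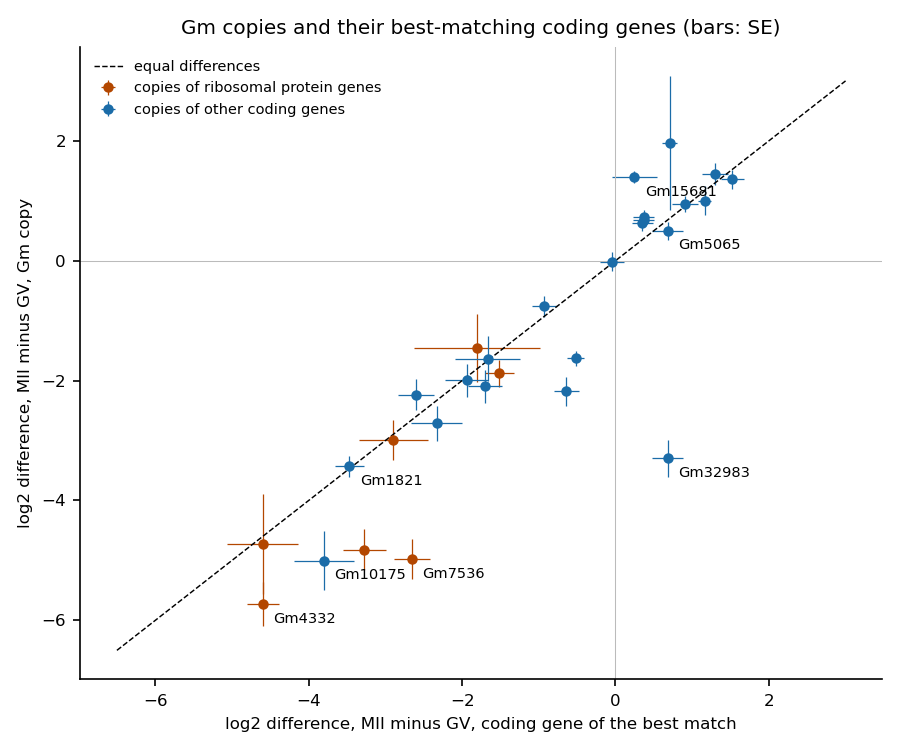
Log2 difference (MII minus GV, log2(FPKM + 1) scale) of 29 Gm copies against that of the coding gene each matches best, with SE bars and a dashed line of equal differences. Most points lie in the same-direction quadrants; Gm32983 (-3.29 against 0.68 for Lgalsl) lies outside them.

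The relatives of Oog1 and Oog2, oocyte genes of the leucine-rich repeat PRAME-like family, were the abundant protein-coding members. Gm13084 (chr4:143809245-143816093, minus strand), 98.0% identical to Oog2, was at 911, 899.6 and 690.1 FPKM in SN GV oocytes, 765, 840.1 and 826 in NSN GV oocytes, 261, 259, 239.9 and 182 in SN-MII oocytes and 273, 269.9 and 175 in NSN-MII oocytes. The stages were apart and its log2 difference was -1.80 (SE 0.14, adjusted p = 4.18e-08), beside -0.99 (SE 0.15) for Oog2. Gm13103 fell with -1.45 (SE 0.13) and Gm10436, 98.8% identical to Oog1, with -0.73 (SE 0.11). Gm2042, 99.6% identical to Oog1, had -0.31 (SE 0.12, adjusted p = 0.0387), a call that was lost under each of the other scales. Gm13023 was at 534 to 971 FPKM at GV and 626 to 1215 at MII and was not called.

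The 5 copies of mitochondrial genes lie together on chromosome 1 (chr1:24612775-24616197), each at least 99.7% identical to its gene. None of the 5 source genes was found in the FPKM table under its annotated symbol, and other names were not searched. The copies were therefore not set beside these genes, which encode subunits of the respiratory chain and the ATP synthase. Gm10925, the copy of mt-Atp6, was at 1125, 891 and 1323 FPKM in SN GV oocytes and 1147, 1749.6 and 802 in NSN GV oocytes, and at 1124, 941, 1333 and 2153 in SN-MII and 3209, 787 and 3530.4 in NSN-MII oocytes. The stages overlapped and NSN-MII oocytes 1 and 3 were the highest. The difference of 0.54 (SE 0.33) was not called as deposited, but was 0.83 and called higher with every library scaled to the same sum (adjusted p = 0.029), and not with the other 2 scales. Gm29216 (-1.36, SE 0.54, adjusted p = 0.0358) and Gm28661, the copy of mt-Co2 (-3.22, SE 1.36, adjusted p = 0.0475), were called lower by a small margin that was lost under all 3 other scales, and Gm28661 was at 0.01 FPKM in the third SN-MII and at 0 in the second NSN-MII oocyte. All 5 were highest in the second NSN GV oocyte among the GV libraries and lowest in the second NSN-MII oocyte among the MII libraries.

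All 3 lincRNAs of the family on chromosome X were higher at MII. Over all features tested 28.4% were higher, and over those of like abundance 43.4%. Gm2309 (chrX:35129015-35179028, plus strand) was at 124, 103 and 102 FPKM in SN GV oocytes and 97.2, 108 and 108 in NSN GV oocytes, and at 252, 271, 239.8 and 285 in SN-MII and 246, 327 and 320.2 in NSN-MII oocytes. All MII libraries were above all GV libraries (log2 difference 1.37, SE 0.11, adjusted p = 5.33e-08). Gm14552 (chrX:34974042-35009265, minus strand) rose from 27.8 to 41.9 to 86.9 to 104 FPKM (1.39, SE 0.12), and Gm7437 (chrX:30373539-30422500, plus strand) from 27.3 to 39.9 to 73.8 to 107 (1.43, SE 0.11). Their pairs were 92.21% to 99.51% identical, so their values are not independent. The family of 3 protein-coding genes on chromosome 5, at least 98.49% identical to each other, gave no call. Over all features tested, 70.4% were called. Gm6205 was at 93.5 to 150.1 FPKM at GV and 93.8 to 132 at MII, Gm3259 at 70.6 to 110.3 and 59.5 to 92.6, and Gm6367 at 66.5 to 107 and 87.0 to 113.

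Over all features tested, 28.4% were higher and 41.9% lower at MII, and over those of like abundance 43.4% and 42.1%. Of the 47 members with no coding copy elsewhere in the same orientation, 12 were higher, 21 lower and 14 not called. The split of this group was near that of all features, with a smaller part higher than at like abundance. The lincRNA Gm1070 (chr6:71293765-71302880, plus strand), which lies opposite the muscle gene Smyd1, was the most abundant. It was at 377, 438 and 381 FPKM in SN GV oocytes, 356, 392 and 469.7 in NSN GV oocytes, 939, 932, 981 and 1172 in SN-MII oocytes and 836, 924 and 1161 in NSN-MII oocytes. The stages were apart, with a log2 difference of 1.29 (SE 0.11, adjusted p = 1.46e-07). The lincRNA Gm1965 rose similarly, from 233 to 328 FPKM to 522 to 735 (1.11, SE 0.12).

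Falls in this group reached the size of the family of 22. The lincRNA Gm48893 (chr10:26695574-26742860, plus strand), 393 of whose bases match Nlrp9b in reverse orientation at 84.0% identity, was at 157, 146 and 136 FPKM in SN GV oocytes, 116, 153 and 87.0 in NSN GV oocytes, 1.22, 2.98, 2.78 and 1.91 in SN-MII oocytes and 4.75, 2.81 and 2.24 in NSN-MII oocytes. No libraries of the stages overlapped, and its log2 difference was -5.18 (SE 0.20, adjusted p = 1.32e-10). Its MII values stood for an estimated 5.9 to 23.7 reads per oocyte, so the size of the fall is uncertain. The antisense genes Gm14820 (chrX:8042943-8074619, plus strand), opposite the histone methyltransferase gene Suv39h1, and Gm42817 (chr5:128336777-128342778, plus strand), opposite Tmem132d, fell with -3.27 (SE 0.15) and -4.44 (SE 0.31). The libraries did not record the strand, so reads from sequence that such a pair shares cannot be told apart. How much transcript sequence each pair shares was not examined.

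The family of 7 varied widely between oocytes of the same group. Gm15758 was at 209, 112 and 433 FPKM in SN GV oocytes, 858, 463 and 158 in NSN GV oocytes, 108, 169.8, 162 and 58.1 in SN-MII oocytes and 479, 271 and 90.2 in NSN-MII oocytes. All groups overlapped. For each of the 7 members the first NSN GV oocyte was the highest GV library and the second SN GV oocyte the lowest, and at MII the first NSN-MII oocyte was the highest and the fourth SN-MII oocyte the lowest. Over the 6 GV oocytes the highest library was 6.02- to 31.6-fold above the lowest in these members, where the median over the 2302 features with a mean FPKM of at least 50 was 1.49-fold and 62 of these features, or 2.69%, exceeded 4-fold. Gm43622, the most variable, ranged from 8.69 to 275 FPKM at GV and from 1.78 to 58.5 at MII. Reads are divided among members that share sequence, and the part of this in the shared order was not tested.

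Between the stages the family of 7 gave 2 calls, both lower at MII: Gm11261 (log2 difference -1.30, SE 0.39, adjusted p = 0.00807) and Gm11815 (-1.15, SE 0.42, adjusted p = 0.0231). The background over all features tested was 70.4% called and 41.9% lower. The call of Gm11815 was lost after scaling to the same sum (adjusted p = 0.0713) and with quantile normalization (adjusted p = 0.136). The pseudogene Gm10033, which matched no member and is named here because its order was seen to be alike, was at 47.7, 30.0 and 111 FPKM in SN GV, 213, 114 and 39.7 in NSN GV, 28.8, 43.5, 41.4 and 12.4 in SN-MII and 141, 67.1 and 20.9 in NSN-MII oocytes.

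**Figure D5:**
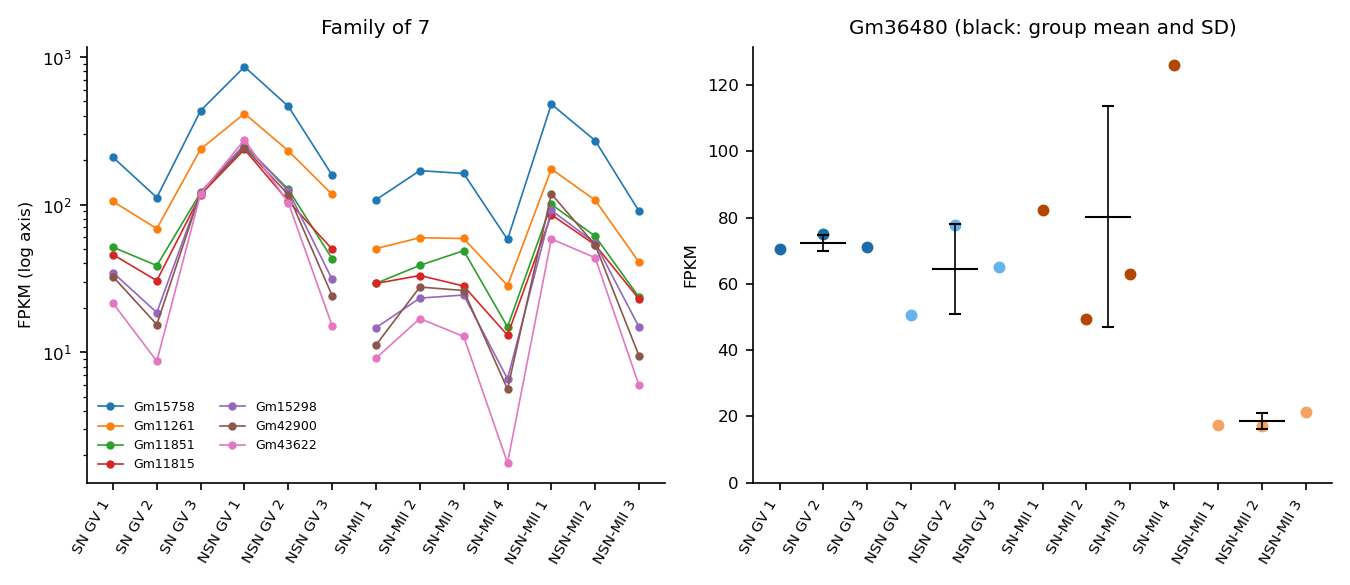
Left, FPKM (log axis) of the family of 7 in each of the 13 oocytes; the lines join the values of a member within a stage and imply no order of the oocytes. Right, FPKM of Gm36480 in each oocyte with group mean and SD, where the 3 NSN-MII oocytes (17.0 to 21.4) lie below the 4 SN-MII oocytes (49.5 to 126) and below all GV oocytes (50.7 to 77.7).

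The comparison of NSN with SN asked whether chromatin and nucleolar state at GV goes with a different RNA content, before and after maturation. At GV no member was called by limma (0 of 123), and neither was any of the 11525 features (0%). At an unadjusted p under 0.05 there were 3 members, or 2.44%, against 2.65% of all features. The family of 22 had log2 differences (NSN minus SN) of -0.11 to 0.12 at GV and -0.50 to 0.54 at MII, none called. For Gm42887 the difference was -0.11 (SE 0.35) at GV and 0.16 (SE 0.33) at MII, so differences of this size were within the error.

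At MII, 1 member was called, where 0.538% of all features were. This was the lincRNA Gm36480 (chr15:90353706-90368444, plus strand, 1206 bases), which overlaps no other gene and matched no coding gene. It was at 70.7, 75.2 and 71.2 FPKM in SN GV oocytes, 50.7, 77.7 and 65.1 in NSN GV oocytes, 82.3, 49.5, 63.1 and 126 in SN-MII oocytes and 17.5, 17.0 and 21.4 in NSN-MII oocytes. The NSN-MII oocytes lay below every other library. The log2 difference between NSN-MII and SN-MII was -1.97 (SE 0.26, adjusted p = 0.00483), against -0.18 (SE 0.28) at GV, but the difference of these differences was not called (-1.79, SE 0.38, adjusted p = 0.295). The call at MII was lost when only the 7 MII libraries entered the fit (adjusted p = 0.111) and kept when each library was left out in turn. At an unadjusted p under 0.05 the MII comparison gave 11 members, or 8.94%, against 9.29% of all features. No member was called for the interaction of type and stage by limma (0 of 123), where 0.00868% of all features were, and 4 members passed an unadjusted p under 0.05, against 5.28% of all features.

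Some short members were listed at 0 in single oocytes and high in others. Gm44301, the miRNA gene of 143 bases, was listed at 0, 141 and 132 FPKM in SN GV oocytes, 81.9, 0 and 0 in NSN GV oocytes, 0, 85.6, 41.9 and 40.1 in SN-MII and 173, 54.3 and 45.3 in NSN-MII oocytes. Gm1943, a 174-base copy of Wdr70, ranged from 0 to 86.7 FPKM at GV and from 0 to 178 at MII. In all, 5 members had a library at 0. A listed 0 can be a failed estimate.

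The threshold cut through a run of similar values. The members just above it were Gm32983 (mean 51.1 FPKM), Gm48584 (51.0) and Gm15941 (50.2), and the features just below it were Gm28221 (49.9), Gm2694 (48.7) and Gm43263 (48.7).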

How the data were processed

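Single-oocyte SMART-seq2 libraries, which read polyadenylated RNA without strand or molecular identifiers, were trimmed with Trim Galore 0.4.4, aligned to mm10 with Bowtie2 2.3.5 and quantified with RSEM 1.2.28, per the submitters' processing notes and the study's methods. The authors deposited RSEM expected counts, 1 table of 18939 genes per stage, and FPKM for all libraries. FPKM values are relative to a library's reads and to transcript length, and the rule that left features out of the count tables is not given in the sources used here. Expected counts served only for depth. From FPKM, log2(FPKM + 1) was fitted with limma 3.58.1 (R 4.3.3, mean-variance trend, 4 group means over 13 libraries) for features with a mean of at least 1 FPKM, with Benjamini-Hochberg adjustment over all of them; the fit was tested on simulated data. Log2 differences understate changes of low values. Transcripts were compared with blastn 2.17.0 and mafft 7.526; families share at least 200 aligned bases. No column of per-sample values was left unused (0). Members, groups and lists were chosen with earlier results of these data known. Members were named by rank (10 highest means, 5 largest rises and falls with stages apart, calls by type, 3 on either side of the threshold) and, after seeing values, as examples of each group. Alternatives were other pseudocounts, filters, scales, thresholds, fits, and leaving out libraries. Sequences are from GENCODE M21. The values of 1 pair of a copy and its gene are not reported here.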

Additional observations from a re-analysis of the deposited data

Results flagged for a closer look

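In the group of 4 SN-MII oocytes, a single oocyte stood far from the other three in 3 of 69 values examined, and chance alone gives about 1 in 20. The fourth SN-MII oocyte had 67.0 FPKM of Gm15941 where the others had 51.4 to 53.8. The same oocyte held 0.516% of its summed FPKM in the 5 mitochondrial copies where the others held 0.262% to 0.303%. The first SN-MII oocyte had 109 FPKM of Gm31941, a processed pseudogene opposite C86187, where the others had 217 to 229. Only groups of 4 were large enough for this comparison, so the groups of 3 were not examined.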

How the results depend on the processing

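The count of members called between the stages stayed between 88 and 100 over all other fits and scales (94 as reported), and the family of 22 stayed at 22 of 22 lower throughout, the ribosomal copies at 6 to 7. With members chosen at a mean of at least 20 FPKM (252 features), 196 were called over all libraries, 176 in SN and 174 in NSN oocytes. At 100 (68 features) these were 60, 56 and 54, and the MII comparison of types gave 0. The fit behind both called 70.4% of all features over all libraries, 58.3% in SN, 60% in NSN oocytes and 0.538% between types at MII. The MII comparison of types gave 0 also with only the groups compared. It gave 3 with array weights, where 218 of 11525 features were called. Leaving out 1 library at a time gave 89 to 100 calls between stages, 82 to 90 in SN, 83 to 88 in NSN, 0 at GV, 1 at MII and 0 for the interaction. Of all 11525 features these fits called 7810 to 8090 between stages, 5880 to 6969 in SN, 6430 to 6900 in NSN and 29 to 126 at MII. At the mean of 20, the members' share was 13.99% in SN GV, 13.7% in NSN GV and 4.05% in SN-MII oocytes; at 100 it was 12.2% in NSN GV and 2.99% in SN-MII; without Gm42887 it was 12.1% in SN GV and 11.8% in NSN GV. Gm15941, not called between stages (0.12), changed sign with array weights (-0.0517), without the third NSN-MII oocyte (-0.0523; -0.0523 to 0.2786 leaving out 1 library at a time) and without that and the fourth SN-MII oocyte (-0.10, a fit chosen after seeing the data). At 95% identity over 80% of length, 52 in place of 72 members had a related coding gene. Of the named members' values under the alternatives, 1159 kept direction and call, 52 lost the call and 9 gained it. Same-numbered libraries of different groups did not deviate together (correlations -0.394 to 0.164, 2 of 18 pairs over 0.1, and 8 of 36 comparisons best with their own number). The values gave no sign of pairing by number, but they cannot exclude a shared animal or batch. With the replicate number as a block, 90 members were called between stages, 85 in SN, 85 in NSN, 1 at MII and 0 at GV and for the interaction. Of all 11525 features that fit called 7836 between stages, 6085 in SN, 6732 in NSN and 14 at MII. Neither the depth behind short members nor the division of shared reads was varied.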
